A study of Mus musculus with 8 samples.

Results

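The genes described here are 8 genes of vitamin D and retinoid signaling, namely the vitamin D receptor *Vdr*, the calcitriol-making enzyme *Cyp27b1*, the retinoic acid receptors *Rara* and *Rarg*, the retinoid X receptors *Rxra* and *Rxrb*, the retinal reductase *Dhrs3*, and the retinoic acid carrier *Crabp2*. They were selected by name out of 29889 gene names on the array. The selection rule uses no measured value, but the genes were chosen with earlier results of these data known. A gene counted as tested when, for at least 1 cell type, its probe was well above background at d12 as well as d25, which held for 7 of the 8 genes and for 15748 gene names in all. *Cyp27b1* was the gene that was not tested.

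The cells came from peripheral lymph nodes (pLN) of B6.Cg-Foxp3<tm1Mal> mice, in which EGFP marks Foxp3 expressing cells, taken on d12 or d25 p.i., the mice having received s.c. KLH in alum. All 4 cell types share this strain, the immunization, an age of 8 to 14 weeks, and pooling of 8 to 15 mice of mixed gender as the labels give it. Viable CD4+ B220- cells were sorted as GFP- PD1lo GL7- (naïve CD4 T), GFP- PD1hi GL7+ (TFH), GFP+ PD1lo GL7- (Treg), and GFP+ PD1hi GL7+/- (TFR), so that the GL7 gate was wider for TFR than for TFH cells. Each cell type gave 1 array per day from 25 ng of RNA, that is 8 arrays and n = 2 per cell type, and both arrays of a cell type served as its replicates.

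Vitamin D becomes active by successive hydroxylations, the last of which is catalyzed by the *Cyp27b1* product, and the resulting calcitriol acts through VDR. Retinol is oxidized to retinal and further to retinoic acid, and DHRS3 works in the opposite direction by reducing retinal to retinol. Retinoic acid is carried by CRABP2 to its receptors, which like VDR bind DNA as heterodimers with an RXR protein. In T cells, retinoic acid is best known for inducing gut homing receptors and for favoring Treg differentiation, and VDR for being induced upon activation.

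The promoters of *Vdr*, *Dhrs3*, and *Rara* are printed because these genes had the largest differences between TFH and naïve cells among those tested. RefSeq promoter windows of the build GRCm38.p6, with 250 bases before and 50 bases after a transcription start site, were found for 7 of the 8 genes, *Crabp2* being the other one, and numbered 15 in all. Receptors of this family bind half-sites such as AGGTCA, and this word was searched on both strands together with its variants AGTTCA as well as GGGTCA and also GGTTCA, each of which is in capitals below. In the *Vdr* window, capitals also mark GGGCGG, the core of a GC box, which does not overlap the half-site there. Windows are given 5′ to 3′ on the strand of the gene, at chr15:97908247-97908546 on the minus strand for *Vdr*, chr4:144892577-144892876 on the plus strand for *Dhrs3*, and chr11:98939461-98939760 on the plus strand for *Rara*, where the one of its 4 windows with most half-sites was picked.
Vdr: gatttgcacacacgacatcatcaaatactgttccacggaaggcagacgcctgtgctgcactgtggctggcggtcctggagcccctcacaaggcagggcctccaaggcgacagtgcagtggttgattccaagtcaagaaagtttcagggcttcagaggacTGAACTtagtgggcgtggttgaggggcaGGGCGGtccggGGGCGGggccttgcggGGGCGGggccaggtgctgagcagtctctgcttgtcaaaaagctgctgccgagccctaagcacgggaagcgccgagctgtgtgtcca
Dhrs3: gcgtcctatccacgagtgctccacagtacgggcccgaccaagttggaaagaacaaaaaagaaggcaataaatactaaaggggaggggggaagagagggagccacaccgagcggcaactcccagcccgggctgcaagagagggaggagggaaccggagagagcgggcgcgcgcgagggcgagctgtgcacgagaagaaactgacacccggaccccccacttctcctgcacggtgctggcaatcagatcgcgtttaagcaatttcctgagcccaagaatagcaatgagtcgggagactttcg
Rara: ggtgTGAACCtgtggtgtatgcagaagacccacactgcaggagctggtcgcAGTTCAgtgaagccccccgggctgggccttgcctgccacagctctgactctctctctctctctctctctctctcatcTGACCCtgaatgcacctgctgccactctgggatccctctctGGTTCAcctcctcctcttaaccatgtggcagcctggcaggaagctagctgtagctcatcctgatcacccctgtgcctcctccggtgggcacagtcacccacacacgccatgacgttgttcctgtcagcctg
The *Vdr* window held 1 half-site and 3 copies of GGGCGG, the *Rara* window 4 half-sites (against 0, 0, and 1 in the other *Rara* windows), and the *Dhrs3* window neither. At least 1 half-site was present in 43.7% and GGGCGG in 35.7% of all 32851 windows of this length. No direct repeat of these half-sites with a spacer of 1 to 5 bases was present in the 15 windows, and each spacing occurred in 0.0396% to 0.268% of all windows.

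Levels are normalized gPS, the background-corrected probe signal of the scanner software, in relative units (RU) with a floor of 20. Because each probe hybridizes with its own efficiency, levels are compared between cell types for the same probe but not between genes. Differences are log2 differences with their SE from limma over all tested genes, and calls were made at 0.05 after Benjamini-Hochberg adjustment over these genes. Of the tested genes, 46.7% were called between TFH and naïve cells, 39.8% between TFR and Treg cells, 22.2% between TFR and TFH cells, 9.89% between Treg and naïve cells, and 8.52% for the difference between the follicular changes. Among the 7 tested vitamin D and retinoid genes, 4, 5, 4, 2, and 3 were called in these comparisons, respectively, the 3 including *Vdr*, whose levels in progenitors were not measured. For TFR versus naïve cells, 53.2% of all tested genes and 6 of the 7 were called, and for TFH versus Treg cells 39.9% and 5 of the 7. Since earlier results of these data were known when the genes were chosen, their counts are not those of a set picked without the data.

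The labels were checked against defining markers. *Foxp3* was at 37266 to 49260 RU in Treg and TFR cells but at 65.5 to 358.2 RU in the others, and *Cxcr5* at 35332 to 237475 RU in TFH and TFR cells but at 1399 to 4385 RU in naïve and Treg cells. *Ikzf2*, of the same list of 10 markers, did not separate TFH cells (10507 and 10816 RU) from Treg cells (9918.5 and 11104.5 RU). It was at 81.4 and 144.8 RU in naïve and 22901 and 28621 RU in TFR cells. Of 8 B cell markers, *Pax5* was not above background on any array, and their summed level was between 6165 and 18369 RU, highest in TFH cells at d25. The summed level of 5 markers of antibody-secreting cells was 16293 RU in naïve cells at d12 and 2517 to 8553 RU elsewhere, and that of 2 CD8 T cell markers was between 2110 and 5117.5 RU. Sums of myeloid (87796 to 125010 RU) and dendritic cell markers (47440 to 82977 RU) were carried by the probes of *Csf3r*, *Itgam*, and *Siglech*, whereas *Cd14*, *Adgre1*, *Fcgr1*, *Clec9a*, and *Xcr1* were not above background on any array. *Cd68* of the myeloid list was higher in follicular cells, at 5099 and 3767 RU in TFH and 2867 and 2334 RU in TFR cells against 368.3 to 563.7 RU in progenitors, and *Lyz2* was at 1247 and 1257 RU on the d25 arrays of TFH and TFR cells against 205.6 to 460.6 RU elsewhere. Stromal and endothelial markers summed to 1335 to 3843 RU, with *Pdpn*, *Cdh5*, and *Lyve1* not above background on any array and *Pecam1* between 636.9 and 3483 RU. *Col1a1* of this list was above background in TFH (196.7 and 48.4 RU) and TFR cells (288.3 and 195.1 RU) alone, and *Col1a2* in TFR cells alone (171.7 and 107.4 RU). The part of such cells in the results below was not tested. In bulk RNA of a sorted population, fewer cells with a transcript and less transcript per cell cannot be told apart. All d12 arrays were on 1 slide, d25 naïve and TFH arrays on another, and d25 Treg and TFR arrays on yet another, so that day and slide cannot be told apart.

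**Figure D1:**
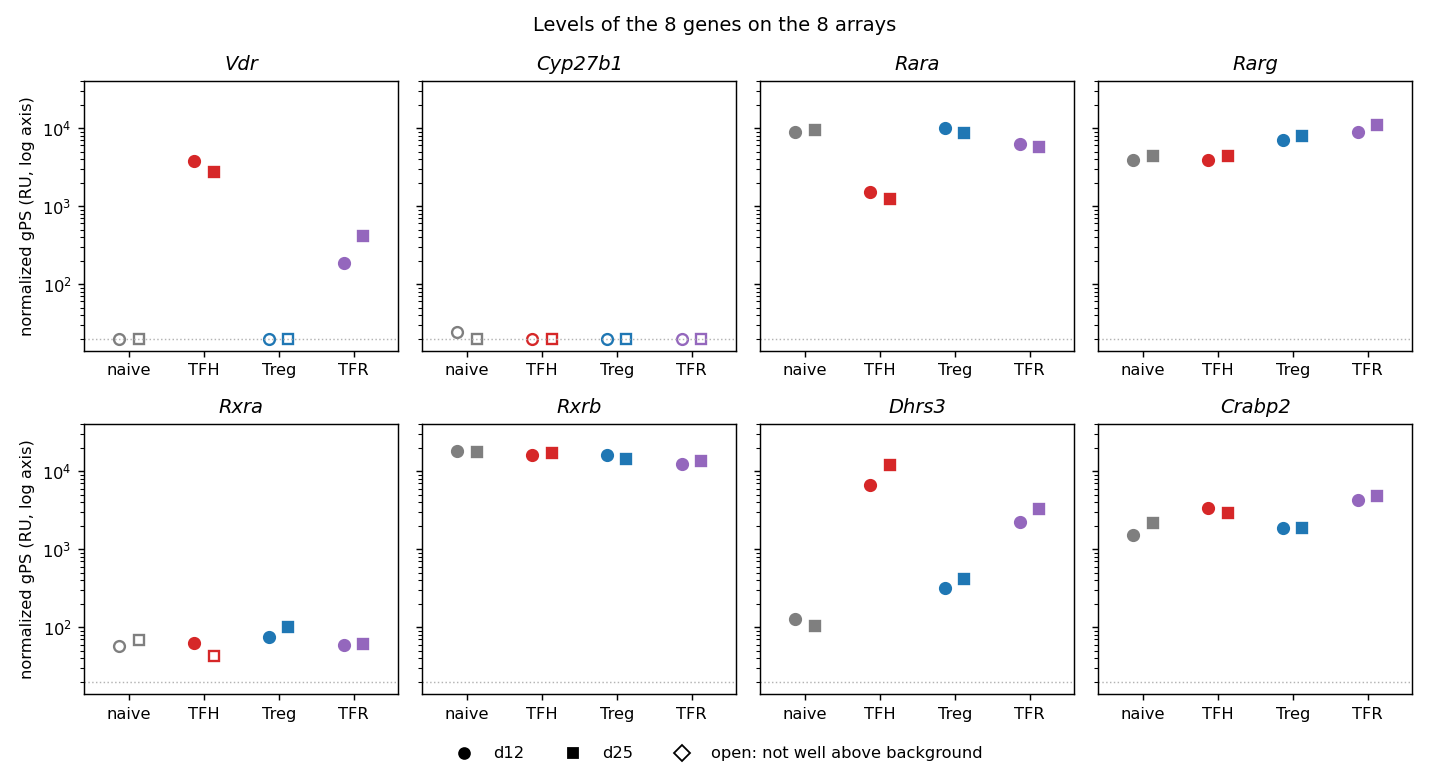
Normalized gPS (RU, log axis) of the 8 genes on each of the 8 arrays, as circles for d12 and squares for d25, with open symbols where the probe was not well above background and the dotted line at the floor of 20 RU. *Vdr* was above background in TFH and TFR cells alone, *Dhrs3* was highest and *Rara* lowest in TFH cells, and *Rarg* was higher in both Foxp3+ cell types than in both Foxp3- cell types.

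*Vdr* mRNA was above background in the follicular cell types and not in their progenitors. The probe lies at chr15:97685136-97685195 on the minus strand in build NCBI37, to which all probe positions here refer, and is assigned to the transcript NM_009504. In TFH cells the level was 3815 RU at d12 and 2744 RU at d25, and in TFR cells it was 188.0 RU at d12 and 418.0 RU at d25. All 4 arrays of naïve and Treg cells were at the floor of 20 RU. No array of a follicular cell type overlapped with an array of a progenitor, nor a TFH array with a TFR array.

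The rise from naïve to TFH cells was at least 55.4-fold (adjusted p = 0.000323) and that from Treg to TFR cells at least 5.28-fold (adjusted p = 0.00309), both calculated against the lowest signal that was well above background on the progenitor arrays. TFR cells remained 11.5-fold below TFH cells, with a log2 difference of -3.53 ± 0.39 (SE, n = 2 arrays each, adjusted p = 0.00570). This distance was -4.34 at d12 and -2.71 at d25, with a change from d12 to d25 of -0.48 in TFH cells and of 1.15 in TFR cells. The day difference over all cell types was 0.17 (adjusted p = 0.702). Every SE and adjusted p of *Vdr* with all arrays also draws on the naïve and Treg arrays, which were at the floor and add no measured spread. Because neither progenitor was above background, the size of each rise has only a lower bound. The fitted difference between the rises, -3.53 ± 0.55 (adjusted p = 0.0277), therefore only restates the TFR to TFH distance and does not measure whether the rises differed. This call was lost when either naïve array, either Treg array, or the d12 TFH array was left out (adjusted p 0.0675 to 0.125), and the TFR to TFH call was lost with TFH and TFR arrays alone in the fit (adjusted p = 0.0518). With normexp background correction and an offset of 50, which compresses low signals, the log2 differences shrank to 4.35 for TFH versus naïve cells and 1.38 for TFR versus Treg cells, and both remained called.

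*Cyp27b1*, the gene of the enzyme that produces the VDR ligand, was not above background on any of the 8 arrays. Its probe at chr10:126489922-126489981 gave 24.5 RU in naïve cells at d12 and the floor of 20 RU on the other arrays. No fold can therefore be given for this gene.

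Other vitamin D genes of a list of 5 enzymes and carriers gave 3 tested genes. *Cyp27a1* and *Cyp24a1*, the latter coding for the enzyme that degrades calcitriol, were not tested. *Cyp2r1*, coding for a hydroxylase of the first activation step, was lower in TFR cells, with 320.1 and 614.4 RU at d12 and d25, than in Treg cells with 851.4 and 924.8 RU, from which it fell by 1.00 on the log2 scale (adjusted p = 0.0304). *Gc*, coding for the vitamin D binding protein, was above background in TFH cells alone, at 83.4 RU at d12 and 574.9 RU at d25, a rise of at least 3.75-fold over naïve cells (adjusted p = 0.0201). The naïve, Treg, and TFR arrays of *Gc* were all at the floor and add no measured spread to this adjusted p. *Pdia3* was 0.50 higher in TFH than in naïve cells on the log2 scale (adjusted p = 0.0196).

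Of 9 genes known to respond to vitamin D, 4 were tested, and *Cyp24a1*, *Trpv6*, *Calb1*, *S100g*, and *Cd14* were not. *Spp1*, coding for osteopontin, had the floor of 20 RU in all progenitor arrays, 447.7 and 1460 RU in TFH cells, and 111.4 and 175.9 RU in TFR cells. It rose at least 13.9-fold in TFH cells (adjusted p = 0.00111) and at least 2.64-fold in TFR cells (adjusted p = 0.00971). The progenitor arrays of *Spp1*, being at the floor, add no measured spread to these adjusted p values. *Il10*, coding for a suppressive cytokine, was highest in TFR cells at 2162 and 5004 RU and was called against both Treg (adjusted p = 0.0493) and TFH cells (adjusted p = 0.0453). *Il2ra*, coding for the IL2 receptor alpha chain, reached 25916 and 28684 RU in Treg and 14490 and 20082 RU in TFR cells but at most 249.1 RU in the other cells, and it fell by 0.68 from Treg to TFR cells (adjusted p = 0.0113). *Ccr10* was not called in any of the 5 cell type comparisons.

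*Rara* mRNA was lowest in TFH cells and only slightly reduced in TFR cells. The brighter of its probes, at chr11:98836197-98836256, gave 8921 and 9542 RU at d12 and d25 in naïve cells, 1511 and 1220 RU in TFH cells, 10070 and 8704 RU in Treg, and 6159 and 5792 RU in TFR cells. The levels of naïve and Treg cells overlapped, while TFR arrays lay below these and TFH arrays below all others.

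From naïve to TFH cells, *Rara* fell by 2.76 ± 0.12 on the log2 scale, that is 6.79-fold (adjusted p = 0.000231), and from Treg to TFR cells by 0.65 ± 0.12, that is 1.57-fold (adjusted p = 0.0154). The difference between these changes was 2.12 ± 0.17 (adjusted p = 0.00661), and TFR cells exceeded TFH cells by 2.14 ± 0.12 (adjusted p = 0.00114). Within the slides, the TFH change was -2.56 at d12 and -2.97 at d25, and the TFR change -0.71 and -0.59. Treg and naïve cells differed by 0.02, with a 95% interval of -0.30 to 0.34 (adjusted p = 0.944). The TFR change lost its call when any array of Treg or TFR cells was left out (adjusted p 0.0704 to 0.0995), whereas its value stayed between -0.70 and -0.59. The fall in TFH cells and the difference between the changes kept their calls in all alternatives tried, the latter with a highest adjusted p just below 0.05.

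The other *Rara* probe, at chr11:98835350-98835409, gave the same order of follicular cells below progenitors, with 7366 and 6370 RU in naïve, 1094 and 927.7 RU in TFH, 6398 and 5862 RU in Treg, and 4054 and 3841 RU in TFR cells. Its TFH change was -2.77 ± 0.09 and its TFR change -0.63 ± 0.09, and the difference between them was 2.13 ± 0.13 (adjusted p = 0.00431).

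*Rarg* was not called between naïve and TFH cells but was higher in Foxp3+ cells. The probe at chr15:102065371-102065430 on the minus strand gave 3867 and 4341 RU in naïve cells, 3896 and 4361 RU in TFH cells, 7091 and 7997 RU in Treg, and 8807 and 11075 RU in TFR cells. All arrays of Foxp3+ cells lay above all arrays of Foxp3- cells, and both TFR arrays lay above both Treg arrays.

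TFH and naïve cells differed by 0.01 with a 95% interval of -0.22 to 0.24 (adjusted p = 0.948). Treg cells exceeded naïve cells by 0.88 ± 0.09 (adjusted p = 0.00750), TFR cells exceeded TFH cells by 1.26 ± 0.09 (adjusted p = 0.00177), and TFR cells exceeded Treg cells by 0.39 ± 0.09 (adjusted p = 0.0255). The difference between the follicular changes was 0.38 ± 0.13 and was not called (adjusted p = 0.148). The TFR to Treg call rests on every array of naïve, Treg, and TFR cells, as leaving out any of these 6 gave adjusted p values of 0.0539 to 0.142, and the Treg to naïve call was lost without any one of their 4 arrays (adjusted p 0.0597 to 0.0752). With slide in place of day as a block, Treg exceeded naïve cells by 0.83 (adjusted p = 0.0587).

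*Rxrb* was present in all cells at levels of a narrow range. Its probe at chr17:34175279-34175338 gave 18229 and 17840 RU in naïve, 16026 and 17174 RU in TFH, 16155 and 14420 RU in Treg, and 12543 and 13479 RU in TFR cells. TFR arrays were lowest, and their distance from naïve cells was -0.47 ± 0.10 (adjusted p = 0.0173), a call lost without any one of these 4 arrays (adjusted p 0.0631 to 0.109) and with slide as a block (adjusted p = 0.0828). The distance of TFR from TFH cells was -0.35 ± 0.10 and was not called (adjusted p = 0.0744), except with an intensity trend in the variance prior (adjusted p = 0.0313). No other difference of *Rxrb* was called.

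*Rxra* signals were close to background, and its probes did not give the same picture. The brighter probe, at chr2:27618781-27618839, gave 57.2 and 69.0 RU in naïve, 62.5 and 42.9 RU in TFH, 75.1 and 101.3 RU in Treg, and 58.6 and 60.7 RU in TFR cells and was above background on 5 arrays, those of Treg and TFR cells and the d12 array of TFH cells. No difference was called with all arrays. Without the d12 TFH array, the TFH change, the TFH to Treg distance, and the TFR change of -0.55 were called. The naïve arrays and the d25 TFH array were not above background, so that no size is given for these TFH differences. The TFR change was also called without the d25 TFH array.

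The other *Rxra* probe, at chr2:27615316-27615375, gave 32.7 and 43.6 RU in naïve, 46.2 and 36.4 RU in TFH, 56.1 and 100.8 RU in Treg, and 137.8 and 108.1 RU in TFR cells. It was above background on 3 arrays, both TFR arrays and the d25 Treg array. Its levels in naïve and TFH cells were thus not measured, and no size is given for its differences from them. TFR cells had the highest level with this probe and not with the brighter one, and no direction is given for *Rxra* in TFR cells.

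**Figure D2:**
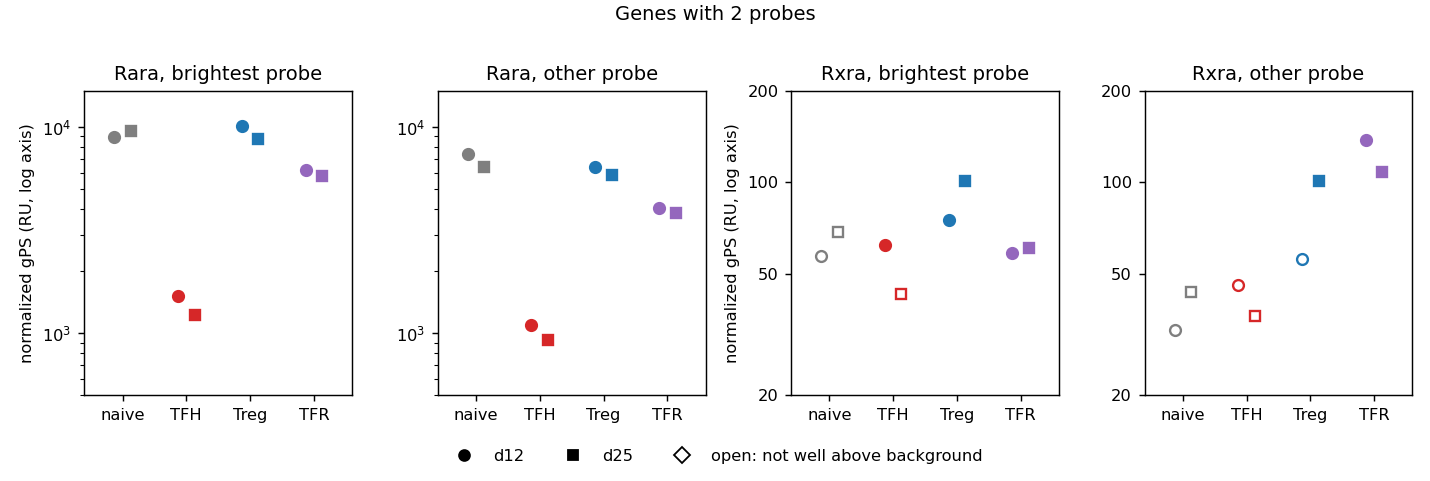
Normalized gPS (RU, log axes with a range for each gene) of both probes of *Rara* and both probes of *Rxra* on each array, circles for d12 and squares for d25, open symbols where the probe was not well above background. The *Rara* probes show the same drop in TFH cells, whereas the *Rxra* probes differ in TFR cells, at 58.6 and 60.7 RU against 137.8 and 108.1 RU.

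Among other retinoid receptors, *Rarb* was not tested and *Rxrg* was not called in any comparison between cell types, with levels of 3038 to 3748 RU. Of 10 other nuclear receptors that pair with RXR, 7 were tested. The thyroid hormone receptor genes *Thra* and *Thrb* differed by -1.69 and -2.15 between TFH and naïve cells and by -1.07 and -1.44 between TFR and Treg cells, all of which were called. *Pparg*, a receptor for fatty acid ligands, rose by 2.19 ± 0.16 in TFR cells (adjusted p = 0.00140), while its TFH change of 0.51 was not called (adjusted p = 0.0523), and the changes differed by 1.67 ± 0.23 (adjusted p = 0.0197). The oxysterol receptor gene *Nr1h3* rose by 1.25 in TFR cells. *Nr1h2*, *Ppara*, and *Ppard* were called in neither follicular change, but *Nr1h2* and *Ppara* were called between TFR and naïve cells at -0.47 (adjusted p = 0.0235) and -0.39 (adjusted p = 0.0283).

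*Dhrs3* rose strongly in follicular cells and most in TFH cells. Its probe at chr4:144517485-144517544, assigned to NM_011303, was above background on all arrays and gave 127.0 and 103.3 RU in naïve, 6753 and 11970 RU in TFH, 315.1 and 411.7 RU in Treg, and 2229 and 3292 RU in TFR cells. The groups did not overlap, and their order from TFH over TFR and Treg to naïve cells was the same at both days.

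The rise was 6.29 ± 0.28 on the log2 scale, that is 78.5-fold, from naïve to TFH cells (adjusted p = 0.000220) and 2.91 ± 0.28, that is 7.52-fold, from Treg to TFR cells (adjusted p = 0.00260). These rises differed by -3.38 ± 0.39 (adjusted p = 0.0137). The starting points differed as well, since Treg cells exceeded naïve cells by 1.65 ± 0.28 (adjusted p = 0.0283), and the end points differed by -1.73 ± 0.28 between TFR and TFH cells (adjusted p = 0.0152). Within the slides, the TFH rise was 5.73 at d12 and 6.86 at d25, and the TFR rise 2.82 and 3.0. From d12 to d25, *Dhrs3* was higher by 0.83 in TFH, 0.39 in Treg, and 0.56 in TFR cells and fell by 0.30 in naïve cells, and the day difference over all was 0.37 (adjusted p = 0.266). Both rises were called in all alternatives, and the TFH rise was 6.74 at most and 5.08 at least. The difference of the rises lost its call without any one Treg or TFR array (adjusted p 0.0707 to 0.0888), with values of -3.51 to -3.25. The TFR to TFH call was lost without the d25 TFH array or either TFR array (adjusted p 0.0701 to 0.120) and the Treg to naïve call without the d25 naïve array or any one Treg or TFR array (adjusted p 0.0611 to 0.169). With slide as a block, the Treg to naïve distance was 1.55 (adjusted p = 0.149) and the TFR to TFH distance -1.84 (adjusted p = 0.0688), and with normexp the former shrank to 0.92 (adjusted p = 0.0408).

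**Figure D3:**
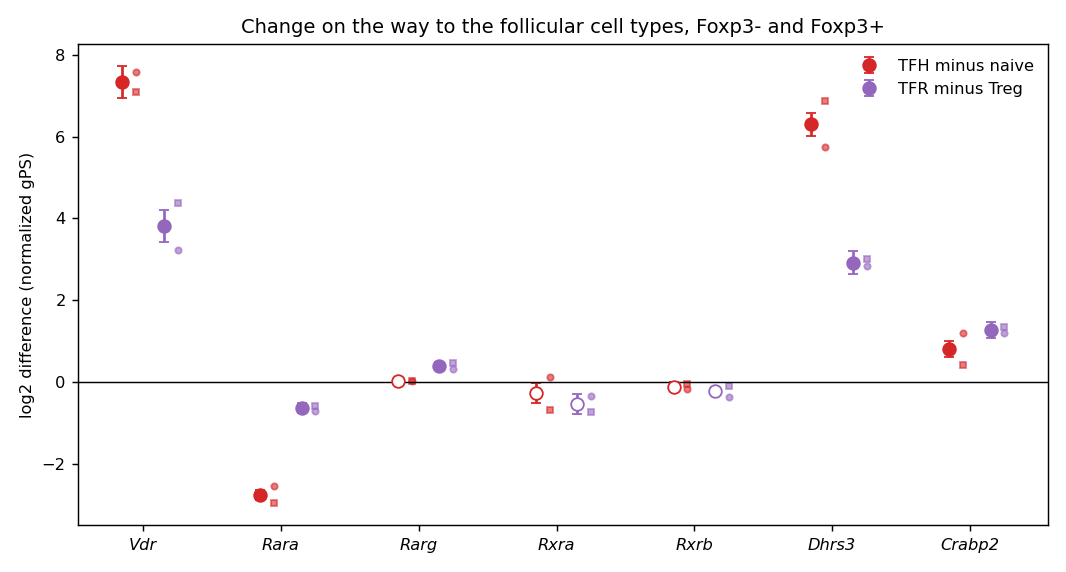
Log2 difference between TFH and naïve cells (red) and between TFR and Treg cells (purple) for the 7 tested genes, as large symbols with SE, filled where called, and with the values at d12 (small circles) and d25 (small squares) beside them. *Vdr* and *Dhrs3* rose and *Rara* fell in both, and *Dhrs3* and *Rara* changed more in TFH than in TFR cells, while *Rarg* and *Crabp2* had the larger estimate in TFR cells. For *Vdr*, the progenitors are at the floor.

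*Crabp2* was higher in follicular than in progenitor cells. Its probe at chr3:87757207-87757266 gave 1502 and 2179 RU in naïve, 3420 and 2907 RU in TFH, 1881 and 1885 RU in Treg, and 4333 and 4768 RU in TFR cells. Arrays of follicular cells lay above those of progenitors, and naïve and Treg arrays overlapped.

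The rise was 0.80 ± 0.19 in TFH cells (adjusted p = 0.0254) and 1.27 ± 0.19 in TFR cells (adjusted p = 0.00854). The TFH rise was 1.19 at d12 and 0.42 at d25, the TFR rise 1.20 and 1.34. The rises differed by 0.47 with a 95% interval of -0.24 to 1.18 (adjusted p = 0.359), TFR and TFH cells by 0.53 ± 0.19 (adjusted p = 0.121), and Treg and naïve cells by 0.06 (adjusted p = 0.890). The TFH call was lost without the d12 naïve array, the d12 TFH array, or any one Treg or TFR array (adjusted p 0.0526 to 0.106), with slide as a block (adjusted p = 0.0528), with only the 4 arrays compared (adjusted p = 0.136), and without a filter on dim probes (adjusted p = 0.110). The TFR call was lost without that filter (adjusted p = 0.0534) and without any one Treg or TFR array (adjusted p 0.0516 to 0.0659).

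Between Foxp3+ and Foxp3- cells, only the d12 arrays share a slide. There, TFR cells differed from TFH cells by 2.03 for *Rara*, 1.18 for *Rarg*, -1.60 for *Dhrs3*, and 0.34 for *Crabp2*, and Treg cells from naïve cells by 0.87 for *Rarg* and 1.31 for *Dhrs3*, each in the direction of the value over both days. That value includes these d12 arrays, so the shared direction is no separate check of the slides.

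Neighbors ordered by level were called for *Dhrs3* throughout, with TFH above TFR (-1.73), TFR above Treg (2.91), and Treg above naïve cells (1.65). For *Vdr* this held for TFH above TFR and TFR above Treg cells, with Treg cells at the floor. For *Rara* it held for TFR above TFH and naïve above TFR cells (-0.63, adjusted p = 0.0123), and for *Rarg* for TFR above Treg and Treg above TFH cells (-0.87, adjusted p = 0.00244). For *Crabp2* only TFH above Treg cells was called among neighbors (0.74, adjusted p = 0.0362). In alternatives given above, *Dhrs3* lost its TFR to TFH and Treg to naïve calls. *Vdr* lost its TFR to TFH call there, and *Rarg* its TFR to Treg call. The naïve over TFR call of *Rara* was lost without the d25 naïve array or either TFR array (adjusted p 0.0637 to 0.0806) and with slide as a block (adjusted p = 0.0622). The TFH over Treg call of *Crabp2* was lost without the d12 TFH array or any one Treg or TFR array (adjusted p 0.0806 to 0.174) and with slide as a block (adjusted p = 0.139).

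None of the 7 tested genes was called by limma between d25 and d12, a comparison in which 0.0699% of all tested genes were called, and 1 of them, *Rarg*, was below 0.05 before adjustment, as were 4548 of all 15748. The largest day difference was that of *Dhrs3* given above, and that of *Rarg* was 0.21 ± 0.06 (adjusted p = 0.124), with a higher level at d25 in all 4 cell types.

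The genes of the lists around these 8 numbered 80, all of which are on the array, and 52 were tested. Of these, 11 rose and 14 fell from naïve to TFH cells (48.1%, against 46.7% of all tested genes), and 10 rose and 14 fell from Treg to TFR cells (46.2%, against 39.8%). TFR cells were higher than TFH cells for 10 and lower for 8 genes (34.6%, against 22.2%), and Treg cells were higher than naïve cells for 7 and lower for 4 (21.2%, against 9.89%). The follicular changes differed for 8 genes (15.4%, against 8.52%), and no gene was called between the days. The lists were chosen with earlier results of these arrays known.

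Of 18 listed enzymes that act on retinol and retinal, 13 were tested. In TFH cells 2 rose and 5 fell (53.8%, against 46.7% of all tested genes, median -0.22 against -0.07). In TFR cells 1 rose and 4 fell (38.5%, against 39.8%, median 0.01 against -0.08). *Adh1*, coding for an alcohol dehydrogenase that oxidizes retinol, had 9075 and 9711 RU in naïve, 364.7 and 452.6 RU in TFH, 1234 and 1615 RU in Treg, and 639.9 and 457.3 RU in TFR cells. It fell by 4.53 ± 0.23 in TFH cells (adjusted p = 0.000293) and by 1.38 ± 0.23 in TFR cells (adjusted p = 0.0107), and its distance of Treg from naïve cells was -2.73 (adjusted p = 0.00441). *Retsat*, coding for retinol saturase, fell by 0.98 in TFH cells and its distance of Treg from naïve cells was -0.79. *Bco2*, coding for a carotenoid cleaving dioxygenase, rose at least 4.54-fold in TFR cells to 352.2 and 206.2 RU (adjusted p = 0.00448). *Lrat*, coding for the enzyme that esterifies retinol, was not tested.

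The genes of retinoic acid synthesis and breakdown were hardly detected. *Aldh1a1*, *Aldh1a2*, *Aldh1a3*, *Cyp26a1*, *Cyp26b1*, and *Cyp26c1* were not tested, and *Aldh8a1* was at 89.7 to 169.1 RU and fell by 0.73 in TFH cells (adjusted p = 0.0257). Of 10 binding and uptake proteins, *Rbp3*, *Stra6*, and *Fabp5* were tested. *Stra6*, coding for a retinol uptake receptor, was above background in Treg cells alone (360.2 and 241.3 RU) and fell at least 6.35-fold in TFR cells (adjusted p = 0.000700). Its TFH and TFR arrays were at the floor and add no measured spread to this adjusted p. *Fabp5*, coding for a fatty acid binding protein that also carries retinoic acid, rose by 0.97 ± 0.14 in TFH cells (adjusted p = 0.00514) and by 1.46 ± 0.14 in TFR cells (adjusted p = 0.00257) and reached 35940 and 28872 RU in the latter.

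**Figure D4:**
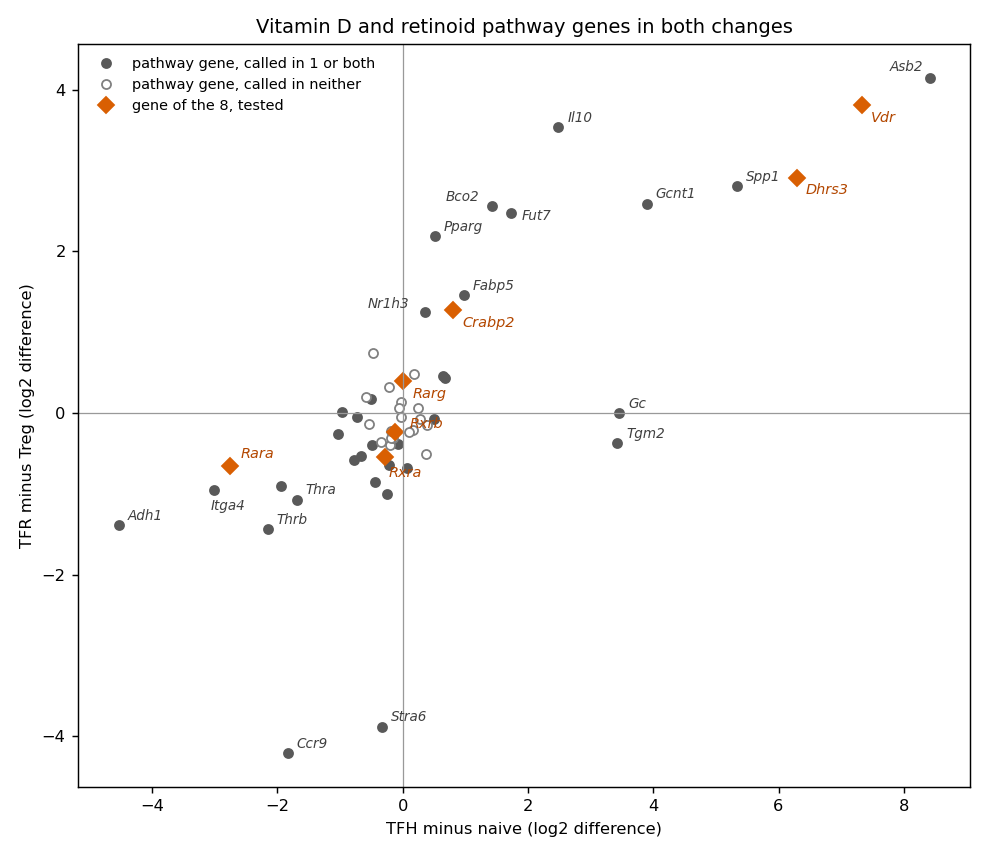
Log2 difference between TFR and Treg cells against that between TFH and naïve cells for the 52 tested pathway genes (circles, filled where called in either) and the 7 tested genes of interest (diamonds). *Vdr* and *Dhrs3* lie near *Asb2* and *Spp1* at the upper right, and *Rara* near *Itga4*, *Thra*, and *Adh1* at the lower left. Differences are plotted as fitted, and values of genes at the floor are included.

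Genes known to respond to retinoic acid were called in both directions. Of 12 listed, 9 were tested, of which 4 rose and 3 fell in TFH cells (77.8%, against 46.7% of all tested genes, median -0.34) and 3 rose and 3 fell in TFR cells (66.7%, against 39.8%, median -0.37). The list was not sorted by the direction of the known response, and the paper gives *Fut7* as lowered by retinoic acid. These counts and medians therefore do not give the direction of a response. *Asb2*, coding for a ubiquitin ligase subunit, was not above background in naïve cells (20.2 and 58.2 RU) and at 10520 and 13040 RU in TFH, 130.9 and 111.6 RU in Treg, and 2221 and 2071 RU in TFR cells. It rose at least 186-fold in TFH cells (adjusted p = 0.000324) and 17.7-fold in TFR cells (adjusted p = 0.00350). *Gcnt1* and *Fut7*, which code for enzymes that build selectin ligands, rose in both, by 3.89 and 1.73 in TFH and by 2.59 and 2.48 in TFR cells. *Tgm2*, coding for a transglutaminase, rose by 3.43 ± 0.12 in TFH cells (adjusted p = 0.000170) and was not called in TFR cells (-0.37, adjusted p = 0.0675). The gut homing receptor genes fell, *Ccr9* by 1.83 in TFH cells and at least 16.5-fold in TFR cells, and *Itgb7* with -1.95 and -0.90, while *Itga4* fell by 3.02 in TFH cells and its TFR value of -0.95 was not called (adjusted p = 0.0675). The fitted changes were called as different between the lineages for 5 of the 9 genes (55.6%, against 8.52% of all tested genes), with lower values in the Foxp3+ lineage for *Asb2*, *Tgm2*, *Gcnt1*, *Ccr9*, and *Stra6*. For *Asb2*, *Ccr9*, and *Stra6*, at least 1 cell type was not above background, so that the size of the difference was not measured. Of the genes named here, *Fut7*, *Itga4*, and *Itgb7* were chosen after their values were seen.

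All 12 coactivators and corepressors of nuclear receptors were tested. Of these, 33.3% were called between TFH and naïve cells, against 46.7% of all tested genes, and 33.3% between TFR and Treg cells, against 39.8%. In TFH cells *Hdac3* rose by 0.67 and *Ncoa2*, *Ncoa3*, and *Med1* fell with values of -0.66, -0.45, and -0.49, and in TFR cells the same 4 genes were called in the same directions at 0.43, -0.53, -0.86, and -0.39. *Ncoa3*, coding for a coactivator of nuclear receptors, was at 34467 and 35308 RU in Treg cells, above naïve cells by 0.65 (adjusted p = 0.0218).

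Over the 8 arrays, *Dhrs3* and *Vdr* had a Pearson r of 0.95 and *Rara* and *Vdr* one of -0.94, as a description of 8 arrays that fall into 4 cell types. The tested genes most similar to *Vdr* were *Dmwd* (r = 0.998), *Angptl2* (r = 0.995), and the neuropeptide gene *Gal* (r = 0.995), the last of which reached 25519 and 38943 RU in TFH cells and 2286 and 4470 RU in TFR cells. For *Dhrs3* they were *H1f0*, *Tjp3*, and *Adssl1* (r of 0.995 to 0.996), for *Rara* *Ass1*, *Emp3*, and *Esyt1* (r of 0.995 to 0.998), for *Rarg* *Morc1*, *Ccser2*, and *Vill* (r of 0.990 to 0.992), and for *Crabp2* *Vmn1r219*, *Hrh4*, and *Spock1* (r of 0.988 to 0.995).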

How the data were processed

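The authors deposited Agilent Feature Extraction 10.7.3.1 output of 8 one-color arrays with 157716 spots each, 4 per probe, in which intensity is the background-subtracted processed signal (gPS). They also deposited a table of normalized intensities on a linear scale. Per their methods, flagged spots, spots outside 1.42 interquartile ranges of the replicate spots, and spots with a pixel CV above 0.5 were excluded, replicate spots were averaged geometrically, and arrays were quantile normalized, scaled to a 75th percentile of 1500, and set to a floor of 20. These steps were rebuilt from the scanner intensity (86.45% to 89.18% of spots kept, 75th percentile 483.0 to 878.3 before normalization). On the log2 scale, r with the deposited values was 0.99936 to 0.99938. Of 39429 probes, 46.30% to 50.39% were well above background per array, which required over 50% of the kept spots, and the number of arrays limits the precision.

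The labels and the methods do not give the same pool size (8 to 15 and 7 to 8 mice). The probe with the highest mean stood for a gene. In R 4.3.3, limma 3.58.1 fitted cell type and day over 15748 genes (3 residual and 1.906 prior degrees of freedom). The fit was tried on simulated arrays with independent noise and changes in TFH cells alone. These held only probes above background on all arrays, so signals at the floor and slide effects were not covered. Since both arrays of a cell type come from different days, p-values measure only the spread between these arrays. The comparisons of TFR with naïve and TFH with Treg cells were added afterwards to order the levels. The members and lists were chosen with earlier results of these data known. Besides the 8 members, up to 4 called genes with the largest absolute difference were named per list, and the 3 genes with the highest r for each member whose cell type means ranged over more than 1 on the log2 scale. A "fold of at least" sets the bright mean against the lowest signal well above background, or the dim probe's own signal where that is higher. An adjusted p beside such a fold belongs to the fitted difference with floor values included, and does not test the bound.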

Additional observations from a re-analysis of the deposited data

Results flagged for a closer look

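The fitted change on the way to the follicular cell type was called as different between the Foxp3+ and the Foxp3- lineage for 3 of the 7 tested genes, against 8.52% of all tested genes, by the limma test of the difference itself, with n = 2 arrays per cell type. For *Vdr* the Foxp3+ change (Treg to TFR) less the Foxp3- change (naïve to TFH) was -3.53 on the log2 scale (adjusted p = 0.0277), with -4.34 at d12 and -2.71 at d25. Since *Vdr* was not above background in either progenitor, this value restates the distance of TFR from TFH cells and does not measure a difference between the changes. For *Rara* it was 2.12 (adjusted p = 0.00661), with 1.85 at d12 and 2.38 at d25. For *Dhrs3* it was -3.38 (adjusted p = 0.0137), with -2.91 at d12 and -3.86 at d25. In each case both days had the same sign. The call was lost in 6 of 17 alternatives for *Vdr* (adjusted p up to 0.145) and in 5 of 18 for *Dhrs3* (adjusted p up to 0.0910). It was lost in none of 18 for *Rara*, where the highest adjusted p lay just below 0.05.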

How the results depend on the processing

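The deposited table, scaling without quantile normalization, normexp, no spot exclusion, a stricter filter (which leaves *Vdr* and *Rxra* untested), and the mean of all probes changed no call of a tested gene. Without a filter on dim probes, the number of the genes called was 3 in place of 4 for TFH versus naïve, 2 in place of 4 for TFR versus TFH, 3 in place of 5 for TFR versus Treg, 1 in place of 2 for Treg versus naïve cells, and 1 in place of 3 for the difference of the changes. For Treg versus naïve cells it was 0 with slide as a block and 0 with only their 4 arrays. Leaving out 1 array at a time, which leaves a cell type with 1 array assumed to vary like the others, gave 3 to 4 genes for TFH versus naïve, 3 to 4 for TFR versus TFH, 2 to 6 for TFR versus Treg, 0 to 2 for Treg versus naïve cells, 1 to 3 for the difference, and 0 for the days. The cause of these shifts was not tested. The other probe of *Rxra* gave 1.69 for TFR minus naïve cells, against -0.07 with the brighter probe, where neither probe was above background in naïve cells. *Vdr* lost the TFR to TFH call without the filter (adjusted p = 0.0535). *Rarg* lost the TFR to Treg call without a day term (adjusted p = 0.122). Over all tested genes, the calls for TFH versus naïve cells were 7347, and 3101 with only their 4 arrays. Those for TFR versus TFH cells were 3493, but 1645 without the filter, 1368 with slide as a block, 2215 without a day term, and 1682 with 4 arrays. Those for TFR versus Treg cells were 6261, and 3865 without the filter. Those for Treg versus naïve cells were 1558, but 687 without the filter, 531 with slide as a block, 1004 without a day term, and 0 with 4 arrays. Those for the difference were 1341, but 421, 703, and 820 under the first 3 of these. Those between the days were 11, but 28 with scaling alone, 893 with normexp, 6 without spot exclusion, 0 without the filter or with mean probes, 856 with the stricter filter, and 1145 with an intensity trend. With 1 array left out, the lowest counts were 4323, 950, 2524, 423, 303, and 0 in this order. Only 4 arrays could not be used for the difference, and were not for the days. A slide block gives no day value. The day term already sets arrays of the same day against each other, and the labels carry no replicate numbers to block on. Signals near background limit *Rxra*, *Cyp27b1*, and the progenitor levels of *Vdr*.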
